A study of Mus musculus with 6 samples.

Results

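The leukocyte integrins described here were 10 genes that encode subunits of the adhesion receptors known from blood cells, chosen by name after their levels in these samples had been seen. The alpha subunits were Itga2b, Itga4, Itga5, Itgal, Itgam and Itgax, and the beta subunits were Itgb1, Itgb2, Itgb3 and Itgb7. All 10 were among the 24732 gene symbols for which FPKM was given, where FPKM is the number of fragments per kilobase of transcript, scaled to the number of mapped fragments of the library. Since the choice used the contrast between the groups, the changes of these 10 genes are given as a description, with their standard errors and without a test.

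RNA-seq was done on mouse cells labelled FGSC, female germline stem cells kept in culture, in a control group and a group with knockdown of CTCF (shCTCF), a protein that binds DNA at chromatin boundaries and loop anchors, with 3 samples each. Cells of both groups were of strain C57BL/6 per the labels, had gone through more than 20 passages and grew on a feeder layer of inactivated STO cells, a mouse embryonic fibroblast line, in medium with leukemia inhibitory factor, EGF, bFGF and GDNF. The study's methods describe their isolation from ovaries of neonatal Ddx4-Cre; mT/mG mice, in which a germ cell promoter drives Cre and Cre switches a fluorescent reporter. The shCTCF group was infected with a lentivirus that carried a short hairpin RNA (shRNA) against Ctcf and was selected with puromycin, whereas the labels call the other group only control and do not say what virus, if any, it received. Nothing in the labels says whether samples of a group came from separate cultures, so that the p-values below measure the spread between these samples, which may be technical. Separately, a bulk sample cannot tell fewer cells of a type from less RNA per cell.

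Total counts lay between 1686052 (control replicate 2) and 7044272 per sample, and 9639 to 9937 genes had at least 1 FPKM. Ctcf had 58.2, 56.1 and 53.5 FPKM in the controls and 0.740, 0.550 and 0.629 FPKM in the shCTCF samples, which checks the labels of the groups. It had 0 counts in all 6 samples, so this check covers the FPKM values only. The labelled cell type was checked against 9 markers of the female germline. Dppa3 and Gfra1 were listed at 0 in all 6 samples, and the germ cell genes Ddx4, Dazl and Pou5f1 were listed at 0 in every control and averaged 0.125, 0.0355 and 0.0372 FPKM in the shCTCF group. Some genes known from blood cells were at high levels. The 12 mast cell genes listed summed to 1333 to 1387 FPKM in the controls, mainly Kit and Gata2. Of these 12, 5 were under 1 FPKM in every sample, among them Fcer1a and Mrgprb1 at 0. Ptprc, which encodes the leukocyte antigen CD45, had 103.6 ± 17.5 FPKM (SD, n = 3) in the control and 114.8 ± 6.83 in the shCTCF group, and the receptor gene Kit had 574.9 ± 35.8 and 786.5 ± 14.4 FPKM. These 5 germline genes were thus absent or near 0. With Prdm1, 6 of the 9 markers were under 1 FPKM in every sample. Etv5 had means of 17.3 and 14.2 FPKM in the control and shCTCF groups, Zbtb16 had 1.56 and 0.288 FPKM, Prdm1 had 0.0751 and 0.788 FPKM, and Ifitm3, an interferon-induced gene also known as fragilis, had 0.737 and 10.8 FPKM. The cells are called here by their label only.

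Integrins are receptors of the cell surface that bind matrix proteins or counter-receptors on other cells, and each consists of 1 alpha and 1 beta subunit that leave the endoplasmic reticulum as a pair. Itgb2 pairs with Itgal (LFA-1), Itgam (Mac-1), Itgax and Itgad, and these receptors are restricted to leukocytes. Itga4 pairs with Itgb1 (VLA-4) or Itgb7, Itga5 pairs with Itgb1 to form the classical fibronectin receptor, and Itga2b pairs with Itgb3 to form the fibrinogen receptor of platelets, which is also made by mast cells in culture. Inside the cell, talin and kindlin bind the beta tail and switch the receptor to its active form.

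The promoters of the members with the largest falls and rise are shown first, as a description. They were picked by the changes of the members, so no link between base composition and direction of change can be read from them. RefSeq promoter sequences of build GRCm38.p6 were matched for 7 of the 10 members (not for Itgal, Itgb2 and Itgb3). The stretches below are the 250 bases before the annotated start, read 5′ to 3′ on the strand of the gene, with Itgb7, whose level changed little, for comparison. Capitals mark the core letters GAGGAA of ETS factors such as PU.1, AGATAA of GATA factors and TGTGGT of RUNX factors, on either strand. They lie at chr11:102469884-102470133 (minus strand), chr2:79255176-79255425 (plus strand), chr8:128685404-128685653 (plus strand) and chr15:102231936-102232185 (minus strand).
Itga2b: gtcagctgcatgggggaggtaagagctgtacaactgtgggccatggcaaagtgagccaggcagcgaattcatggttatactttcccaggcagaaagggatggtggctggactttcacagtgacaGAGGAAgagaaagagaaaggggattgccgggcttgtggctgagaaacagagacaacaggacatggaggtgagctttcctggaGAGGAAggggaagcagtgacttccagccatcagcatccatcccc
Itga4: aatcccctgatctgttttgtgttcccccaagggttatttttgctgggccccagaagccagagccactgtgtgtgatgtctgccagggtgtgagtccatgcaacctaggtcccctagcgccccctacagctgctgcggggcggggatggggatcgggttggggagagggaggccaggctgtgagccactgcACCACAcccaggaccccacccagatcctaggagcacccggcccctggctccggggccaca
Itgb1: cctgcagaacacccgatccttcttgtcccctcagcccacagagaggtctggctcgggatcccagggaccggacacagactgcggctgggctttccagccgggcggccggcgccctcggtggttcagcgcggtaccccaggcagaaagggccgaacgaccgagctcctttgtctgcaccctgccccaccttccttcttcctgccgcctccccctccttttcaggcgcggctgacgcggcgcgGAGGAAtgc
Itgb7: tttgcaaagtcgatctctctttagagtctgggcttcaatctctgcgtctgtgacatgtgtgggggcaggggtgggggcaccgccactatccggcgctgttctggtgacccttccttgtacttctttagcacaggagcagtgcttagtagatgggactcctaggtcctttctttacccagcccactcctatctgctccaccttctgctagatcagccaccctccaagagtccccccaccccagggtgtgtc
Itga2b held GAGGAA at 126 to 121 and at 44 to 39 bases before its start, and Itgb1 held it once at 9 to 4 bases before its start. Itga4 held TGTGGT once, on the reverse strand at 60 to 55 bases before its start, where it reads ACCACA. None of these 3 letter strings occurred in the window of Itgb7. Among 32851 promoter windows of the same length, 23.3% held GAGGAA, 9.99% held AGATAA and 14.0% held TGTGGT, so that each string is common and a match is a description of letters, not a site. The motifs do not overlap in the windows printed. The Itgb1 window had 68.0% G and C and 21 CpG dinucleotides, compared with a median of 52.4% and 6 over all windows. Itga2b, which fell, had 54.0% and 2 CpG, Itga4 had 64.0% and 6, and Itgb7 had 56.0% and 5.

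The summed mRNA of the alpha subunits was lower in the shCTCF group, and that of the beta subunits was higher. The 6 alpha genes summed to 116.3, 124.4 and 109.8 FPKM in the controls and to 26.3, 24.8 and 24.9 FPKM in the shCTCF samples. The 4 beta genes summed to 198.0, 195.3 and 192.0 FPKM in the controls and to 396.6, 381.4 and 382.3 FPKM in the shCTCF samples. Each sum moved far beyond the spread within groups, and neither moved evenly: 3 alpha genes carried the fall (Itga2b, Itga4 and Itgal) and 1 beta gene (Itgb1) carried the rise. On FPKM, 8 of the 10 members had a mean of at least 1 FPKM, and 4 of these 8 changed at least 2-fold in the fit across all genes, 1 higher and 3 lower. Of all 9976 genes tested, 26.5% did, 11.4% higher and 15.1% lower. The values of the groups did not overlap for 5 of the 8 members (those 4 and Itgb2), as for 76.6% of all genes tested. The members were chosen on this contrast, so that nothing is read from these shares. Itga5, Itgb2, Itgb3 and Itgb7 changed less than 2-fold, and Itgam and Itgax lay under 1 FPKM. The median log2 fold change was 0.03 over the 8 members and -0.17 over all genes tested on the log2(FPKM + 1) scale, on which the added 1 shrinks the fold of genes with few FPKM. Scaling the samples to the same median raised the log2 fold changes of the members by about that shift.

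**Figure D1:**
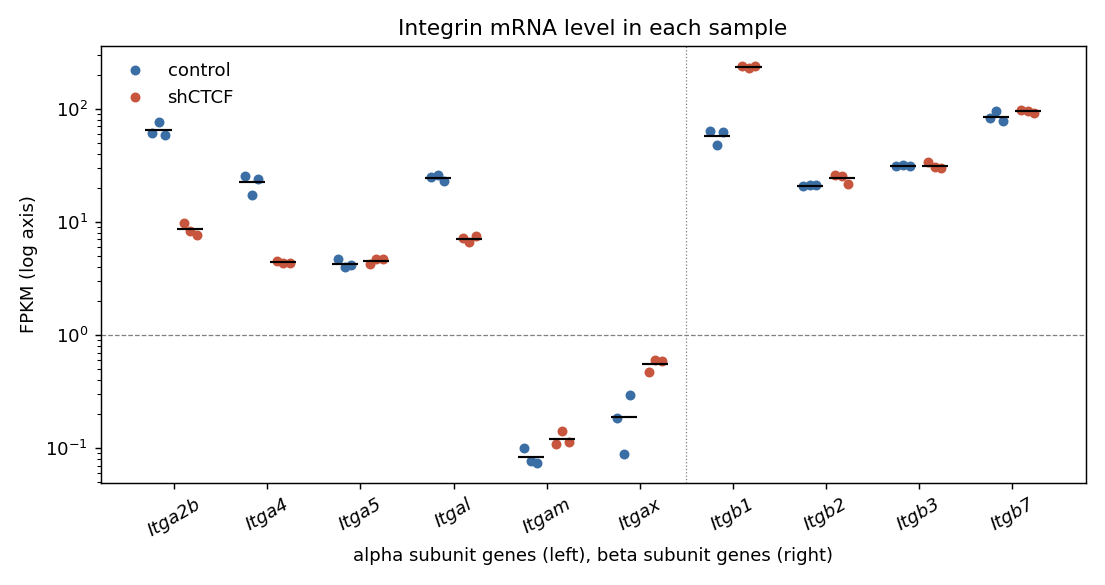
FPKM of the 10 integrin genes in each sample on a log axis, with 3 control points (blue) and 3 shCTCF points (red) per gene and a bar at the mean; the dashed line marks 1 FPKM and the dotted line separates alpha from beta subunits. Itga2b, Itga4 and Itgal fell, Itgb1 rose to a mean of 236.1 FPKM, and Itgam and Itgax lay under 1 FPKM in every sample.

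Itga2b, the platelet glycoprotein IIb, showed the largest fall of the members. It had 61.1, 76.8 and 58.4 FPKM in the 3 controls and 9.85, 8.30 and 7.69 FPKM in the 3 shCTCF samples. All controls lay far above all shCTCF samples, and control replicate 2 was the highest. The mean went from 65.4 ± 9.95 to 8.61 ± 1.11 FPKM (SD, n = 3), which was 86.8% lower, with a log2 fold change of -2.79 ± 0.13 (SE; 95% interval -3.08 to -2.49). In the count table, 3228, 1016 and 3392 fragments in the controls stood against 459, 336 and 414 in the shCTCF group, and edgeR gave -2.78 ± 0.12.

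Itga4, the alpha 4 subunit of VLA-4, had 25.4, 17.3 and 24.1 FPKM in the controls and 4.51, 4.36 and 4.32 FPKM in the shCTCF samples. The groups did not overlap, and control replicate 2, the shallowest library, was the lowest control. The mean went from 22.3 ± 4.35 to 4.40 ± 0.102 FPKM, a 5.07-fold lower level, and the log2 fold change was -2.09 ± 0.14 (interval -2.42 to -1.77). Counts of 2834, 515 and 2819 in the controls and of 451, 392 and 497 in the shCTCF group gave -2.19 ± 0.12 in edgeR.

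Itgal encodes the alpha chain of LFA-1, the leukocyte receptor for ICAM-1. Summed over its 4 transcript accessions, it lay between 22.8 and 26.0 FPKM in the controls and between 6.69 and 7.48 FPKM in the shCTCF samples. The groups did not overlap, and the fall was smaller than those of Itga2b and Itga4 on this scale. Its mean went from 24.5 ± 1.63 to 7.10 ± 0.396 FPKM, 3.45-fold lower, with a log2 fold change of -1.65 ± 0.08 (interval -1.85 to -1.46). The accession with the highest level, NM_001253873, had 11.1, 19.5 and 13.9 FPKM in the controls and 3.53, 2.99 and 4.87 FPKM in the shCTCF samples. NM_001253872 had 7.62, 6.53 and 5.73 FPKM in the controls and 2.40, 1.98 and 2.61 FPKM in the shCTCF samples. Both fell without overlap between the groups. The remaining accessions, NM_001253874 and NM_008400, were listed at 0 in some samples of both groups. None of the 4 accessions has exon bases of its own, so the split between them is uncertain and their sum is the value to use.

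Itga5, the alpha subunit of the fibronectin receptor, did not follow them. It had 4.68, 4.01 and 4.14 FPKM in the controls and 4.24, 4.66 and 4.68 FPKM in the shCTCF samples. The ranges overlapped, and the log2 fold change was 0.07 ± 0.10 (interval -0.16 to 0.30). As with the other members, the interval is given as a description and not as a test. It leaves room for a modest change in either direction.

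Itgam and Itgax, the CD11b and CD11c chains that mark macrophages, neutrophils and dendritic cells, were at very low levels in both groups. Itgam lay between 0.0743 and 0.0993 FPKM in the controls and between 0.108 and 0.142 FPKM in the shCTCF samples, and it had 0 counts in all 6 samples. Its 2 accessions have 3 and 0 exon bases of their own, so the count of 0 sets no limit on its level. Itgax had 0.184, 0.0893 and 0.293 FPKM in the controls and 0.475, 0.602 and 0.594 FPKM in the shCTCF samples. The count table held 11, 1 and 5 fragments of it for the controls and 24, 25 and 22 for the shCTCF samples. All shCTCF samples were above all controls on both tables, and control replicate 2 with 1 count lay under the floor of 3 counts. edgeR gave a log2 fold change of 1.99 ± 0.41, which went from 1.65 without control replicate 3 to 2.66 without control replicate 1, and the fold of this low gene thus moved by over 1.5 times with 1 control library left out.

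Itgb1 was the member that rose most in FPKM. This beta subunit is shared by most integrins of matrix and is found on nearly all cells. It had 63.8, 47.6 and 62.2 FPKM in the controls and 240.1, 230.3 and 238.0 FPKM in the shCTCF samples. The shCTCF samples were close to each other and all far above the controls. The mean went from 57.9 ± 8.93 to 236.1 ± 5.19 FPKM, a 4.08-fold higher level, with a log2 fold change of 2.02 ± 0.11 (interval 1.77 to 2.28). Counts of 3086, 591 and 3207 in the controls and of 10426, 9099 and 11989 in the shCTCF group gave 2.20 ± 0.10 in edgeR.

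Itgb2, CD18, is the beta chain of the leukocyte-restricted integrins. It had 20.6, 21.1 and 21.1 FPKM in the controls and 26.0, 25.7 and 21.7 FPKM in the shCTCF samples. The shCTCF samples were higher without overlap, but shCTCF replicate 3 was close to the controls. Its log2 fold change was 0.21 ± 0.09 on FPKM (interval 0.01 to 0.41) and 0.35 ± 0.25 on counts, where 12 to 43 fragments per sample came from the small part of its exons that no other accession covers.

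Itgb3, which completes the platelet fibrinogen receptor and also pairs with Itgav, had 31.2, 31.8 and 31.4 FPKM in the controls and 33.8, 30.5 and 29.9 FPKM in the shCTCF samples. The groups overlapped, and the means were 31.5 ± 0.309 and 31.4 ± 2.10 FPKM. The log2 fold change was -0.00 ± 0.07 (interval -0.17 to 0.16) on FPKM, 0.17 after scaling to the same median and 0.21 ± 0.08 on counts. The sign turned because the scaling moved the members by about 0.17 and the value was near 0, and no direction is given for Itgb3.

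Itgb7, the partner of Itga4 in gut homing of lymphocytes, had the highest level of all members in the control. It had 82.3, 94.7 and 77.3 FPKM in the controls and 96.6, 94.9 and 92.7 FPKM in the shCTCF samples. The ranges overlapped through control replicate 2. Its log2 fold change was 0.16 ± 0.08 on FPKM (interval -0.03 to 0.36) and 0.37 ± 0.07 on counts, where TMM normalization was used, and 0.20 on counts with library size alone.

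**Figure D2:**
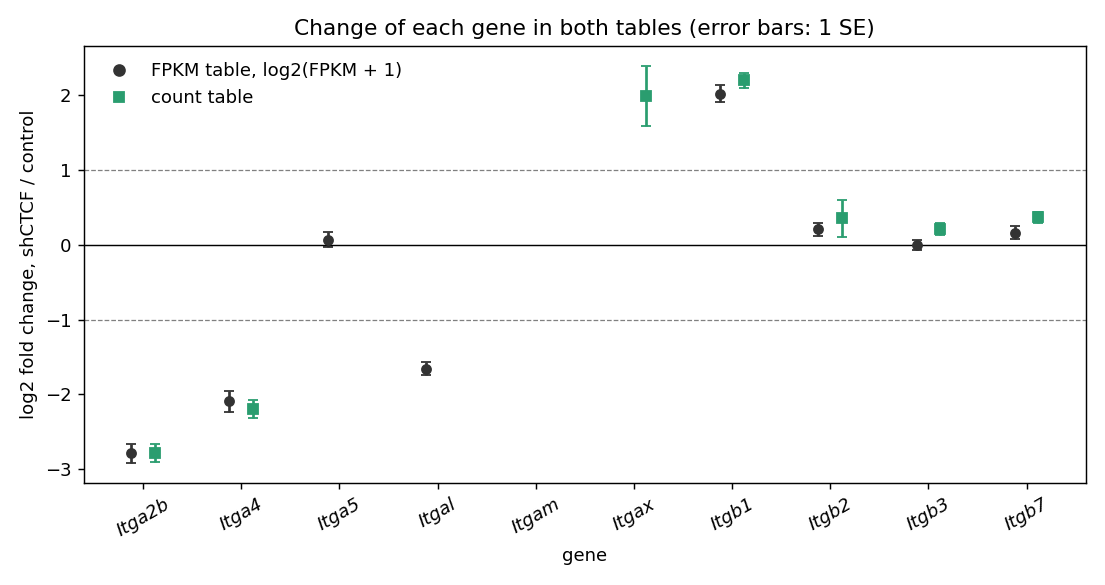
Log2 fold change (shCTCF over control) of each integrin gene with 1 SE, from the FPKM table with limma (circles) and from the count table with edgeR (squares); dashed lines mark a 2-fold change. Itga2b and Itga4 fell and Itgb1 rose on both tables, Itgal and Itga5 have a value on FPKM only, Itgax on counts only, and Itgam on neither.

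In the count table, 7 of the 10 members could be fitted, and 4 of these 7 changed at least 2-fold (Itga2b and Itga4 lower, Itgb1 and Itgax higher). Of all 7341 genes tested on counts, 33.1% did, 18.8% higher and 14.2% lower. The values of the groups did not overlap for 6 of the 7 (all but Itgb2), beside 71.3% of all genes, and nothing is read from this either. The way of counting bears on the others, since a fragment over exons of more than 1 accession was assigned to none. Itga2b, Itgb1, Itgb3 and Itgb7 have 1 accession each and all of their exon bases to themselves, and Itga4 has 98.3% to itself, the rest lying over exons of Cerkl. By contrast, 245 of 2874 exon bases of the coding accession of Itgb2 and 3109 of 4043 of the long accession of Itgax are their own, and the 2 accessions of Itga5 have 12 and 60. Values of Itgal, Itga5 and Itgam therefore rest on FPKM alone.

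The balance within each receptor pair was described by the ratio of summed alpha FPKM to beta FPKM in each sample, a ratio of mRNA levels per transcript length and not of protein. For the Itgb2 family (Itgal, Itgam, Itgax and Itgad over Itgb2), it was 1.22, 1.24 and 1.10 among controls and 0.297, 0.290 and 0.377 among shCTCF samples. Almost all of its numerator was Itgal, since Itgad was listed at 0 and Itgam and Itgax were under 1 FPKM. For the platelet pair (Itga2b over Itgb3), it was 1.96, 2.41 and 1.86 among controls and 0.291, 0.272 and 0.257 among shCTCF samples. Here the numerator fell while the denominator stayed near 31 FPKM. In the Itgb7 family (Itga4 and Itgae over Itgb7), it was 0.313, 0.187 and 0.317 among controls and 0.0510, 0.0553 and 0.0570 among shCTCF samples. The ratio of Itga4 and Itga5 to Itgb1 was 0.472, 0.448 and 0.455 among controls and 0.0364, 0.0392 and 0.0378 among shCTCF samples. This was the largest shift of the 4 ratios, from a mean of 0.458 ± 0.0122 to 0.0378 ± 0.00138, because its numerator fell and its denominator rose. No ratio overlapped between the groups, a direction that the changes of the members already fix. The ratios cover only the subunits named in them. Itgav, which also pairs with Itgb3 and Itgb1, and Itga6, which also pairs with Itgb1, were left out, so the ratios do not compare all alpha mRNA with all beta mRNA. The ratio to Itgb2 in the control was 0.714 when only the Itgal accession with the highest mean was counted, so that its side of 1 depends on the sum over accessions.

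**Figure D3:**
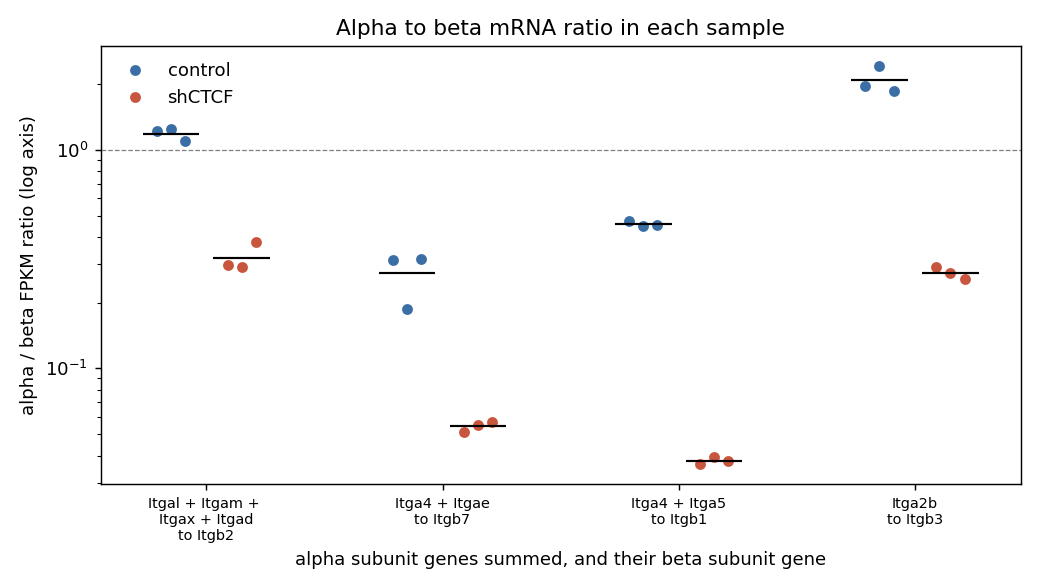
Ratio of summed alpha FPKM to beta FPKM in each sample on a log axis for 4 sets of subunits, with 3 control points (blue), 3 shCTCF points (red) and a bar at the mean; the dashed line marks equal levels. All shCTCF ratios lay under 1, and the ratio for Itgb1 went from a mean of 0.458 to 0.0378.

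The order of the levels also changed. In the controls Itgb7 was highest with 84.8 ± 8.94 FPKM, above Itga2b and Itgb1, whose ranges overlapped. Itgb3 came next, then Itgal, Itga4 and Itgb2, of which Itgal overlapped Itga4 and Itga4 overlapped Itgb2. Itga5 with 4.28 ± 0.354 FPKM and the nearly absent Itgax and Itgam closed the order. In the shCTCF samples Itgb1 came first with 57.3% of the summed FPKM of the 10 genes, compared with 18.6% in the controls. Itgb7 with 94.8 ± 1.96 FPKM, Itgb3 and Itgb2 with 24.4 ± 2.38 FPKM followed without overlap between neighbours. Itga2b, which had held 21.0% of the sum, held 2.09%. The highest alpha subunit among the 10 genes in the shCTCF samples thus stood below the lowest of the 4 beta subunits, and Itga5 and Itga4 overlapped near the end of the order.

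Several members share a chromosome. In mm9, Itga2b (chromosome 11, 102314611 to 102331197, minus strand) and its partner Itgb3 (104469314 to 104531785, plus strand) lie 2.14 Mb apart, and the first fell while the groups overlapped for the other. On chromosome 7, Itgal (134439774 to 134478651), Itgam (135206154 to 135262005) and Itgax (135273064 to 135294171) lie in this order on the plus strand, with 727.5 kb between Itgal and Itgam and 11.1 kb between Itgam and Itgax. Itgal fell, whereas its neighbours in this cluster stayed under 1 FPKM. On chromosome 15, Itgb7 (102046426 to 102062366) and Itga5 (103174718 to 103197222) lie 1.11 Mb apart on the minus strand. Itga4 lies on chromosome 2 (79095583 to 79173271), Itgb1 on chromosome 8 (131209554 to 131257479) and Itgb2 on chromosome 10 (76993115 to 77028453), all on the plus strand.

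The nearest gene with at least 1 FPKM on each side of a member was looked up after the members' values had been seen, and its change is given without a test. Itga2b has Gpatch8 at 6.03 kb, with a log2 fold change of 0.03 ± 0.08, and Fam171a2 at 5.63 kb, with -0.97 ± 0.13. Beside Itgal, Sephs2 at 22.2 kb had -0.89 ± 0.09 and Zfp768 at 7.66 kb had 0.05 ± 0.10. Itga4 lies far from other genes at this level, and both of its neighbours, Ube2e3 at 326.6 kb with 0.59 ± 0.13 and Itprid2 at 302.3 kb with 1.38 ± 0.06, were higher while it was lower. Next to Itga5, Zfp385a at 4.20 kb had 2.00 ± 0.09 and Nckap1l at 87.0 kb had 0.38 ± 0.07. Next to Itgb2, Pttg1ip at 15.9 kb had 1.79 ± 0.06 and Fam207a at 14.6 kb had -0.36 ± 0.08. Zfp740 at 0.384 kb from Itgb7 had -0.40 ± 0.08 and Rarg at 3.00 kb had 0.07 ± 0.10. Cdc27 at 57.4 kb from Itgb3 had -0.31 ± 0.19 and Mettl2 at 456.0 kb had -0.57 ± 0.11. Rbm34, at 1714.6 kb from Itgb1, had 0.37 ± 0.14. Beside Itgam and Itgax, Pycard had -0.22 ± 0.10 and Cox6a2 had -2.98 ± 0.20. The nearest neighbours thus moved in both directions, and a link with the changes of the members was not tested.

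Integrins outside the 10 members were then examined with the test across all genes (limma, adjusted over 9976 genes), in which 73.0% of all genes passed the threshold of 0.05, 28.8% higher and 44.2% lower. Of 16 other integrin genes, 13 were under 1 FPKM in every sample, and Itga1, Itga3, Itgad and Itgb4 were listed at 0 throughout. Both of the 2 that could be tested changed. Itgav, the vitronectin receptor chain that pairs with Itgb3 and Itgb1, rose from 9.01, 7.88 and 10.0 FPKM in the controls to 23.5, 23.3 and 21.9 FPKM in the shCTCF samples (log2 fold change 1.26 ± 0.10, adjusted p of limma 1.2e-05). Itga6, the laminin receptor chain that pairs with Itgb1, fell from 25.6, 24.7 and 24.9 FPKM to 8.24, 8.83 and 8.63 FPKM (-1.45 ± 0.07, adjusted p of limma 1.3e-06). Neither overlapped between the groups. Of the alpha chains that can pair with Itgb1, Itga4 and Itga6 were thus lower, Itga5 overlapped between the groups and Itgav was higher. Itgae, the other partner of Itgb7, had means of 0.366 and 0.761 FPKM and was not tested.

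Of 24 measured ligand genes, 7 were tested, of which 4 were higher and 2 lower, beside 28.8% and 44.2% of all genes tested. Their median log2 fold change was 0.30. Icam1, the main ligand of LFA-1, rose from 16.6, 14.3 and 13.9 FPKM to 111.2, 113.7 and 103.9 FPKM (2.80 ± 0.08, adjusted p of limma 1.4e-07; on counts, adjusted p of edgeR 7.1e-11). Itgal, its receptor chain, was lower in the same samples. Spp1, osteopontin, a ligand of Itgav and Itga4 receptors, rose from a mean of 34.1 ± 3.14 to 42.0 ± 2.93 FPKM (0.30 ± 0.09, adjusted p of limma 0.017). Named after their values were seen, the others that passed were Thy1 and Vwf, which rose to means of 2.02 and 2.48 FPKM, and Icam4 and Fn1, which fell to 1.89 and 0.0266 FPKM. Icam4 passed narrowly (adjusted p of limma 0.043) and overlapped between the groups. Icam2 overlapped too and did not pass. Vcam1, the cell-bound ligand of VLA-4, had a mean of at most 0.0176 FPKM.

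Among the 15 tested genes of integrin activation, 4 were higher, 5 lower and 6 did not pass, beside 28.8% higher and 44.2% lower of all genes. Their median log2 fold change was -0.13. Tln1, talin, which binds the beta tail, rose slightly from 56.2 ± 3.90 to 65.0 ± 3.47 FPKM (0.21 ± 0.08, adjusted p of limma 0.038). Its recruiter Apbb1ip, known as RIAM, fell from 30.7 ± 1.84 to 12.6 ± 0.540 FPKM (-1.22 ± 0.08, adjusted p of limma 4.6e-06). Rasa3, a GTPase-activating protein that holds Rap1 inactive in platelets, fell by 1.48 on the log2 scale, and Sipa1, another such protein for Rap1, fell by 1.13. Cyth1, cytohesin 1, which binds the tail of Itgb2, rose by 0.88. Outside the rule for named genes, Fyb and Sharpin also rose, and Rap1b and Fermt3 fell. Sharpin overlapped between the groups on FPKM (adjusted p of limma 0.049). Fermt3, the kindlin of blood cells, went from a mean of 76.8 to 52.4 FPKM.

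In the list of adhesion complex genes, 5 of 15 tested were higher and 8 lower, beside 28.8% and 44.2% of all genes tested. The median log2 fold change was -0.39. Vcl, vinculin, which links talin to actin, rose from 38.8 ± 0.379 to 82.6 ± 3.62 FPKM (1.07 ± 0.06, adjusted p of limma 2.8e-06). Tns1, a tensin that binds beta tails, rose by 0.86 and the kinase gene Ptk2b rose by 0.66 on the log2 scale. Parvg, the parvin of blood cells, fell from 99.3 ± 12.4 to 28.2 ± 1.57 FPKM (-1.77 ± 0.10, adjusted p of limma 2.2e-06). Vasp, which promotes actin growth, fell by 0.74 and the adaptor gene Bcar1 by 0.72. Actn4 and Git1 were the other genes that rose, and Lims1 and Arhgef7 did not pass on FPKM, all named after their values were seen. On counts Lims1 and Arhgef7 passed as lower, with log2 fold changes of -2.05 (adjusted p of edgeR 0.0040) and -1.12 (adjusted p of edgeR 0.038). These fits rest on few fragments. Lims1 had 15, 5 and 25 for control replicates 1 to 3 against 4, 6 and 1 after knockdown, and Arhgef7 had 27, 7 and 26 against 14, 2 and 13. The sign was opposite on FPKM, with 0.11 ± 0.10 for Lims1, whose groups overlapped. Arhgef7 had 0.17 ± 0.07 on FPKM, with every shCTCF sample above every control. No direction is therefore given for either gene.

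Of 16 tested genes of signalling downstream of integrins, 6 were higher, 5 lower and 5 did not pass, with a median of -0.09. Among all genes tested, 28.8% were higher and 44.2% lower. Fcer1g, an adaptor chain through which Itgb2 integrins can signal, rose from 98.6 ± 18.5 to 281.9 ± 5.64 FPKM (1.52 ± 0.12, adjusted p of limma 1.7e-05). Vav3, a guanine nucleotide exchange factor, rose by 1.28, and the kinase gene Syk rose by 0.85 on FPKM. On counts, where Syk had 2 to 21 fragments per sample, its adjusted p of edgeR was 0.074. Cbl, a ubiquitin ligase, fell by 1.18, Plcg2, a phospholipase, fell by 1.03 and the phosphatase gene Ptpn6 fell by 0.67 on FPKM. On counts the fall of Ptpn6 did not pass (adjusted p of edgeR 0.296). Lyn and Csk were the other genes that fell on FPKM, again named after their values were seen. On counts Csk did not pass (log2 fold change -0.07, adjusted p of edgeR 0.726).

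The list of membrane partners held the most genes that rose. Of 11 tested, 8 were higher, 1 was lower and 2 did not pass, beside 28.8% higher and 44.2% lower of all genes tested. The median log2 fold change was 0.93 beside -0.17 over all genes. Plaur, the urokinase receptor, which associates with Itgb1 and Itgb2 integrins, rose from 11.6, 16.8 and 12.5 FPKM to 337.0, 244.8 and 224.5 FPKM (4.20 ± 0.18, adjusted p of limma 6.6e-07). The tetraspanin genes Cd63 and Cd81, whose products sit beside Itgb1 integrins in the membrane, rose by 1.84 and 1.66. Cd63 reached 1184.0 ± 41.3 FPKM, above every integrin gene. Cd44, the hyaluronan receptor, was the gene that fell, by 0.79. Cd37 and Slc3a2 did not pass.

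Over the 6 lists, 50 of 66 genes tested passed, 28 higher and 22 lower. This is 75.8% beside 73.0% of all genes, where 28.8% of all genes were higher and 44.2% lower. With the samples scaled to the same median, 53 list genes passed, 34 higher and 19 lower. On that scaling 7087 of all 9976 genes passed, 3481 higher and 3606 lower. On counts 32 of 43 passed in edgeR (74.4%), 20 higher and 12 lower, beside 69.1% of all 7341 genes, 34.8% higher and 34.3% lower, and the 23 genes that passed on both tables had the same direction on both. The share of called list genes in either direction was therefore near that of all genes. By direction, more list genes were higher than lower on FPKM, the reverse of all genes. The lists were chosen with earlier results known, so nothing is read from this.

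**Figure D4:**
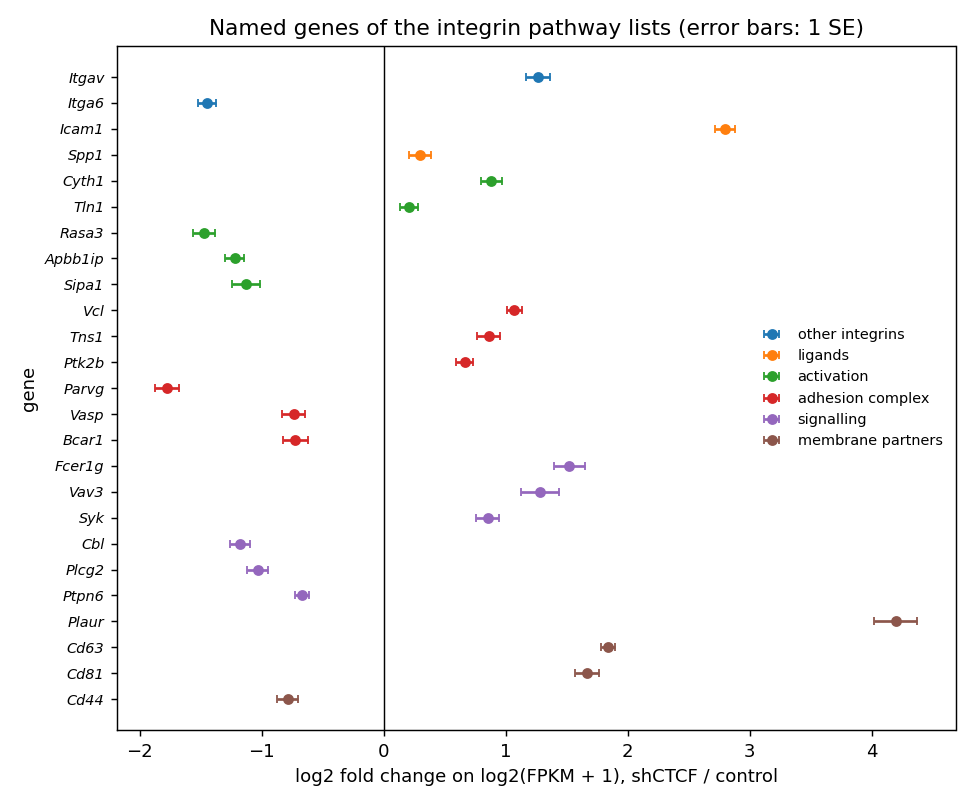
Log2 fold change (shCTCF over control, log2(FPKM + 1) scale) with 1 SE for the genes named by rule from 6 lists of the integrin pathway, coloured by list. Plaur (4.20) and Icam1 (2.80) lay farthest to the right and Parvg (-1.77) farthest to the left.

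Markers of blood and other cell types moved in both directions, in data where 73.0% of all genes tested passed. Their part in the integrin values was not tested. All 5 pan-leukocyte genes were tested, 2 higher and 2 lower. Their sum lay between 607.0 and 627.8 FPKM in the controls and between 823.4 and 854.0 FPKM in the shCTCF samples, where Laptm5 went from 180.7 to 457.7 and Coro1a from 244.3 to 113.4 FPKM. The 12 mast cell genes summed to 1333 to 1387 FPKM in the controls and 1504 to 1574 FPKM in the shCTCF samples, mainly Kit and Gata2, with 4 of 7 tested higher and 1 lower and Fcer1a and Mrgprb1 at 0. The 10 macrophage genes summed to 98.4 to 107.6 and to 198.5 to 234.1 FPKM, mainly Adgre1 (56.7 to 73.7 FPKM) and Cd68 (44.7 to 137.1 FPKM). All 3 that were tested were higher. The other 7 were under 1 FPKM in every sample, with C1qa and C1qb at 0. The 9 neutrophil genes summed to 130.8 to 169.4 and to 2.25 to 2.94 FPKM, nearly all of it Ctsg, which fell from 150.7 to 2.22 FPKM. Mpo had 0.0243 FPKM in the controls, and Elane, Prtn3, Ly6g and S100a9 were at 0 throughout. The 8 megakaryocyte genes, of interest beside Itga2b, summed to 2.54 to 2.71 and to 3.66 to 4.77 FPKM. Vwf, the 1 gene tested, went from a mean of 0.0166 to 2.48 FPKM, so the higher sum rests on it. On counts 3 were tested, 2 higher and 1 lower. Pf4 had 1.18 and Ppbp 1.11 FPKM in the controls. Of the 8 genes, 5 were under 1 FPKM in every sample, with Gp1bb and Gp6 at 0.

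The remaining lists were low. The 10 fibroblast genes, which the feeder cells would express, summed to 10.2 to 11.2 FPKM in the controls and 8.47 to 8.91 FPKM in the shCTCF samples, 2 of 4 tested being higher and 2 lower. Pdgfrb went from 6.09 to 2.16 FPKM, Dcn from 2.71 FPKM to 0, and Col3a1 and Lum were at 0. The 9 female germline genes summed to 19.5 to 19.8 and to 25.7 to 27.0 FPKM, with Etv5 at 17.3 and Zbtb16 at 1.56 FPKM in the controls and 1 of 2 tested higher and 1 lower. The 9 lymphoid genes summed to at most 0.0602 FPKM in the controls and at most 0.534 in the shCTCF samples, with none tested, Cd4 at 0.0201 and Cd3e at 0 in the controls. The 5 dendritic cell genes summed to 2.20 to 3.09 and 5.25 to 6.95 FPKM, nearly all Zbtb46, the 1 gene tested, which was higher, while Flt3 was at 0 in the controls. The 5 endothelial genes summed to 1.07 to 1.43 and to 1.81 to 2.07 FPKM, with Pecam1 as the 1 gene tested, which was higher, and Cdh5 at 0.

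For 4 members the genes with the most similar profile were looked up, as the smallest value of the largest difference in log2(FPKM + 1) over the 6 samples, among 24731 other genes. Itgb7 was nearest to Bin2 (largest difference 0.12), Jund (0.13) and Slc39a7 (0.15). Itgb2 was nearest to Man1b1 (0.13), Celf1 (0.15) and Slc35a4 (0.15). Itga2b had no gene as near, and Pold2 (0.37), Egln3 (0.43) and Pmf1 (0.53) came first. Pold2 had 52.9, 59.3 and 54.3 FPKM in the controls and 7.47, 8.45 and 9.78 FPKM in the shCTCF samples, beside a similar fall of Itga2b. Genes near Itgam included Smpd3 (0.05) and Msrb3 (0.07), which says only that these genes were near 0 too. These points share libraries and depth, and likeness of level over 6 samples says nothing of shared control.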

How the data were processed

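RNA-seq libraries of 3 control and 3 shCTCF samples were analysed, grouped by their GEO titles. Per the labels and the study's methods, reads were aligned by the authors to mm9 with HISAT2 (listed as version 4.8.2). For the deposited counts, the authors ran featureCounts 1.6.2, which gave whole fragments per RefSeq accession, without strand and without normalization, and a fragment over several accessions was dropped. The FPKM values were calculated by the authors with Cufflinks 2.2.1. Cufflinks splits fragments between overlapping transcripts by a model.

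Accessions were named with a RefSeq table (41186 of 41388 in the count table, 41685 of 41876 rows of FPKM; the unmatched took up to 0.603% of a sample's counts) and summed per symbol. Genes whose mean reached 1 FPKM were fitted on log2(FPKM + 1) with limma 3.58.1 (trend), and counts with edgeR 4.0.16 (quasi-likelihood, TMM, filterByExpr) in R 4.3.3. Two-sided p-values were adjusted after Benjamini-Hochberg over all genes tested, with a threshold of 0.05. The fits were tested on simulated data. The members, lists and rules were chosen with earlier results of these data known. Named genes were the members, Ctcf, up to 3 genes that rose and 3 that fell most per list (adjusted p past the threshold, no overlap, at least 5 FPKM in the higher group), the top 2 genes of each marker list and the nearest profiles, of which some are not reported here. A planned protein comparison was not run, as protein sequences were not used here.

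A floor of 3 counts was 0.426 to 1.78 CPM, and it covers counting error only. All pairs of replicates differed beyond counting noise (chi-square per degree of freedom at least 2.07). The labels give both groups the same replicate numbers and no other pairing. Deviations of same-numbered samples correlated at -0.04, 0.02 and 0.04, so that the main fits had no block. Alternatives were other pseudocounts, filters, scalings, DESeq2 1.42.0, the row with the highest mean, counts per kilobase, the replicate block and each replicate left out.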

Additional observations from a re-analysis of the deposited data

How the results depend on the processing

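Of 94 alternatives for the counts of genes and the subunit ratios, 89 stayed within 1.5 times the count or within 1 SD of the ratio, and 5 moved. When only the accession with the highest mean was kept, the ratio of the Itgb2 family was 0.714 in the control and 0.185 in the shCTCF group, since Itgal then lost 3 of its 4 accessions. On counts per kilobase, Itga2b over Itgb3 was 2.69 in the control and 0.334 in the shCTCF group, and the Itgb7 family had 0.0402 in the shCTCF group. The cause of these latter shifts was not tested. Every ratio stayed lower in the shCTCF group under these alternatives.

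For single members, 181 of 195 alternatives shifted the log2 fold change by less than 1 SD of the samples within groups, and 14 shifted it further. Direction was checked only for members that changed at least 2-fold, and 0 alternatives turned it. Itgb3, near 0 on FPKM, lay between -0.06 without shCTCF replicate 1 and 0.17 scaled to the same median, which moved the other members up by about as much. With each replicate left out in turn, 4 members changed at least 2-fold on either table each time, the genes called ran from 6583 to 7884 on FPKM and from 4610 to 5662 on counts, and the list genes from 43 to 55 and from 30 to 34.

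The replicate block, for which the numbers are the only ground and which the correlations do not bear out, gave 7137 genes on FPKM and 4889 on counts, 4 members with a 2-fold change on each table, and 47 and 31 list genes, and changed no count by over 1.5 times. The depth limits Itgax (at most 25 counts) on the count table. Itgb2 has at most 43 counts because few of its exon bases are free of other accessions, and the counting leaves Itgal, Itga5 and Itgam without a check there.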
